A study of Mus musculus with 8 samples.

Results

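The genes described here make, sense and repair DNA breaks: 44 genes of V(D)J recombination and DNA break repair were listed by their known roles, and 37 of them had a probe set of their own on the array, out of 12393 genes that the array measured by the same rule. For each gene the probe set with the highest mean intensity over all arrays was read, a rule that uses no difference between genotypes. Hmgb1 was left out because its 5 probe sets are shared with other genes. Lig4, Dclre1c, Mdc1, Trp53, Xrcc2 and Xrcc3 were not analysed here. The measured genes were 11 recombinase and end joining genes, 20 genes of damage sensing, the checkpoint and homologous recombination, and 6 genes of single strand break, base excision and mismatch repair. Intensities were read on MOE430A GeneChips from sorted B220+ CD25+ pre-BII cells of bone marrow of 7-week-old mice labelled Bl6. The 4 genotypes were the Aiolos/OBF-1 double mutant, the Aiolos and OBF-1 mutants, each lacking only that gene, and wild type. Each genotype was measured in 2 independent pools of 8 mice, with 1 array a pool and 8 arrays in all. The sort and the pools come from the methods: the sample labels give bone marrow as the source and a single animal for each mutant sample. How the deletions were made is not given in the sources used here.

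Developing B cells cut their immunoglobulin genes with the RAG1/RAG2 recombinase at recombination signal sequences, and the broken ends are joined by the classical non-homologous end joining pathway, in which the Ku proteins and the kinase DNA-PKcs hold the ends and XRCC4 with DNA ligase IV seals them. The breaks are sensed by the kinase ATM, which starts the checkpoint response. Homologous recombination needs a sister chromatid and repairs breaks in dividing cells. Pre-BII cells include dividing large cells and resting small cells, and it is in the small cells that the light chain genes are recombined. OBF-1 is the product of Pou2af1 and coactivates Oct factors at octamer sites, and Aiolos is the Ikaros-related zinc finger protein that Ikzf3 encodes.

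The deleted gene Pou2af1 was read at 170 and 273 in double-mutant cells and at 241 and 236 in OBF-1 mutant cells, against 2434 and 2842 in Aiolos mutant cells and 2761 and 2678 in wild type cells, as the OBF-1 labels require. Ikzf3 was not analysed here. The arrays had medians of 66.8 to 69.4 intensity units, and the number of arrays limits the precision. Replicate arrays correlated with an r of 0.9961 to 0.9965, and arrays of different genotypes with an r of 0.9878 to 0.9946. Fluidics station 1 served the double-mutant and Aiolos mutant arrays, and station 2 the OBF-1 mutant and wild type arrays. OBF-1 mutant against wild type and double mutant against Aiolos mutant therefore compare arrays of 1 station and share no array with each other, while in the other comparisons of genotypes station and the loss of Aiolos cannot be told apart. Of the pre-B markers, Cd79a read 7079 to 9365 over all arrays and Il2ra, which encodes CD25, 396 to 703, while Kit, a marker of earlier stages, read 38.6 to 47.8. The summed intensity of 7 pre-B markers was 21810 to 22190 in double-mutant, 27130 to 27940 in Aiolos mutant, 23150 to 24040 in OBF-1 mutant and 28220 to 28550 in wild type samples. Among them Vpreb3 averaged 1798 in double-mutant, 5917 in Aiolos mutant, 1152 in OBF-1 mutant and 5909 in wild type samples. Cd79b averaged 3553 in double-mutant, 5948 in Aiolos mutant, 4454 in OBF-1 mutant and 6213 in wild type samples. Both passed as lower in the OBF-1 mutant against wild type and in the double mutant against wild type and against the Aiolos mutant. Il2ra went the other way and passed as higher in limma in the same comparisons, by 0.60, 0.66 and 0.47 on the log2 scale. Blnk passed as higher in the double mutant against wild type, by 0.41. Granulocyte and monocyte markers were also high, with a summed intensity over 10 genes of 28150 to 28590 in double-mutant, 25800 to 26620 in Aiolos mutant, 27630 to 31360 in OBF-1 mutant and 22700 to 22740 in wild type samples. Of these 10 genes, 7 (70%) passed as higher in the double mutant than in wild type, where 9.03% of all measured genes passed. In the OBF-1 mutant 4 (40%) were higher, where 2.28% of all genes passed. In the Aiolos mutant 0 passed in limma, with 6 at an unadjusted p under 0.05, where 1.78% of all genes passed. Between the double and the Aiolos mutant 0 passed, with 2 at an unadjusted p under 0.05, where 3.41% of all genes passed. Erythroid markers summed to 1367 to 1617 in double-mutant, 977 to 1250 in Aiolos mutant, 1373 to 1886 in OBF-1 mutant and 834 to 901 in wild type samples. Plasma cell markers summed over 4 genes to 4023 to 4318 in double-mutant, 2769 to 2895 in Aiolos mutant, 3588 to 3841 in OBF-1 mutant and 2628 to 2833 in wild type samples, so that the sum was higher on the arrays without OBF-1. Irf4, also read below as a regulator of Rag transcription, averaged 2567, 1710, 2264 and 1593 in the same order. In the OBF-1 and the double mutant against wild type, Irf4 and Sdc1 passed as higher, and 1 of the 4 genes lay below 0 on the log2 scale. T cell, NK and dendritic, megakaryocyte and stroma marker sums lay between 189.7 and 396 on all arrays. The part of these cells in the results was not tested. In sorted bulk cells, fewer cells of a type and less RNA per cell cannot be told apart.

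Loss of OBF-1, alone or with Aiolos, went with lower mRNA of the break sensing kinase Atm and of the growth arrest genes Gadd45b and Gadd45g. Polm, which encodes an end joining polymerase, was lower in the OBF-1 mutant than in wild type, a call that any 1 left-out array ended, and in the double than in the Aiolos mutant, but the double mutant did not pass against wild type. In the double mutant Rag2 and Dntt were higher than in wild type, while Rag1 did not pass the test. Xrcc1, the scaffold of single strand break repair, was lower in the genotypes without Aiolos. The core end joining genes Xrcc4, Xrcc5, Xrcc6 and Prkdc and most homologous recombination genes passed the test in no comparison. Of all measured genes 9.03% passed in the double mutant against wild type, and fewer in each other comparison.

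Differences were tested with limma on log2 intensities across all 22626 probe sets, with 1 mean per genotype, and a gene passed at a Benjamini-Hochberg adjusted p under 0.05. The p-values rest on the spread between the 2 arrays of a genotype, pooled over the 4 genotypes and moderated across genes. In the double mutant against wild type, 10 of the 37 genes passed, which is 27%, where 9.03% of all measured genes passed. The Aiolos mutant against wild type had 2 of 37, or 5.41%, where 1.78% of all genes passed. The OBF-1 mutant against wild type had 4 of 37, all lower, or 10.8%, where 2.28% of all genes passed. Between the double and the Aiolos mutant 5 of 37 passed, or 13.5%, where 3.41% of all genes did, and between the double and the OBF-1 mutant 2 of 37, or 5.41%, where 2.9% of all genes did. The interaction, which asks whether the double mutant departs from the summed differences of the mutants lacking 1 gene, was passed by 0 of 37 genes in limma, with 5 at an unadjusted p under 0.05, where 0.161% of all genes passed. In all, 11 genes passed in at least 1 of these 6 comparisons and 26 in none. Without moderation of the variances across genes, 2 of the 37 genes passed in the double mutant against wild type and 0 in each of the other comparisons.

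**Figure D1:**
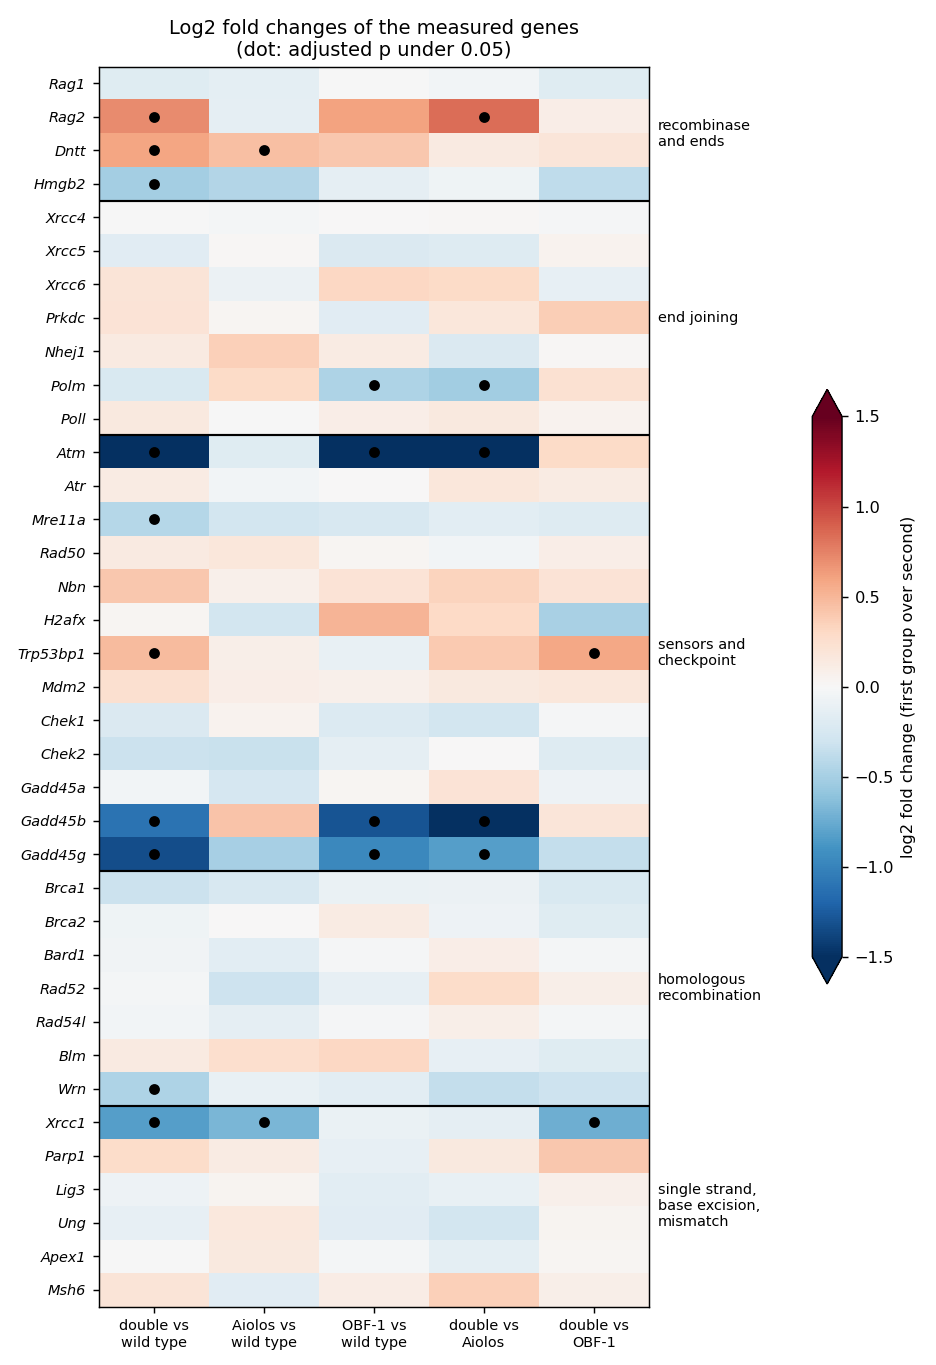
Log2 fold changes of the 37 measured genes (rows, grouped by role) in 5 comparisons (columns, first group over second), with a dot where the adjusted p was under 0.05; colours end at 1.5 on either side. Atm, Gadd45b and Gadd45g carry dots in the 3 comparisons in which the first group lacks OBF-1 and the second has it.

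The promoter sequences of Atm and of the Gadd45 family are shown because Atm, Gadd45b and Gadd45g had the largest differences without OBF-1, which acts through octamer sites, and Gadd45a is the member of the family that passed in no comparison. The octamer was searched as ATGCAAAT, or ATTTGCAT on the other strand, in the 250 bases before each RefSeq gene start of build GRCm38.p6, and matches are in capitals. The windows lie at chr9:53536672-53536921 (Atm, minus strand), chr10:80929841-80930090 (Gadd45b, plus strand), chr13:51846425-51846674 (Gadd45g, plus strand) and chr6:67037408-67037657 (Gadd45a, minus strand). Each is written 5′ to 3′ in the direction of the gene.
Atm: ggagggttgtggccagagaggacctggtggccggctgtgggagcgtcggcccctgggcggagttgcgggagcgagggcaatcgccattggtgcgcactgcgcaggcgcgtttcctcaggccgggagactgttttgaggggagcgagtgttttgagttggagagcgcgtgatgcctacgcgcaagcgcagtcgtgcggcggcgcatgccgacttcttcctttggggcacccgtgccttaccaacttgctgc
Gadd45b: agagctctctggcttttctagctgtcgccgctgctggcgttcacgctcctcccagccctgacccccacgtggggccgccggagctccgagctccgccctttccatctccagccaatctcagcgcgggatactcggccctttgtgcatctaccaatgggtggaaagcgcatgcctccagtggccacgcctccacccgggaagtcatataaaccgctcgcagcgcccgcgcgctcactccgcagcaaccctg
Gadd45g: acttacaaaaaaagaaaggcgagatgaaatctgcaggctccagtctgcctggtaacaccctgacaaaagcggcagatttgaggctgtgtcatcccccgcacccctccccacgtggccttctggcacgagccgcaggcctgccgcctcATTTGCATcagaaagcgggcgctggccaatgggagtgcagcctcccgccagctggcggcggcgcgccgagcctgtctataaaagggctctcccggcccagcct
Gadd45a: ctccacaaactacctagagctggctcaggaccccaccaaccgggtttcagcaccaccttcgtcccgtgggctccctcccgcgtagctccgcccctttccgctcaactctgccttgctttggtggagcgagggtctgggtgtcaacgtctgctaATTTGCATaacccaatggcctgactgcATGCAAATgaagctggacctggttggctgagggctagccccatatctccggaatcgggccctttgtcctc
Gadd45g had 1 octamer and Gadd45a had 2, while the Atm and Gadd45b windows held none. Of the 31 genes of the set with a window, these were the only 2 with an octamer, and 526 of all 32851 windows, or 1.6%, held one. A match is a description of letters and not of a bound site. The Ikaros core TGGGAA, or TTCCCA, occurred in 4 of the 31 windows (Rag1, Brca1, Parp1 and Lig3) and in 21.6% of all windows, and the E2F letters TTTCCCGC or TTTGGCGC, searched on both strands, in 4 of the 31 (Xrcc6, Chek2, Brca2 and Bard1) and in 1.3% of all windows. Both E2F strings were counted together, and no gene with an Ikaros core or an E2F match passed in any comparison.

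Among the recombinase genes, Rag1 encodes the subunit that cuts DNA at the recombination signals. Its intensity was 2568 and 2781 in double-mutant, 2588 and 2899 in Aiolos mutant, 3237 and 2847 in OBF-1 mutant and 3181 and 2901 in wild type cells. The double-mutant arrays lay below the wild type arrays, and the log2 difference of -0.19 (SE 0.11, adjusted p = 0.354) did not pass. In the OBF-1 mutant it was -0.0011 (95% interval -0.23 to 0.23).

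Rag2, the partner subunit that lies next to Rag1 in the genome, gave 377 and 547 in double-mutant, 241 and 266 in Aiolos mutant, 461 and 391 in OBF-1 mutant and 269 and 288 in wild type cells. All 4 arrays without OBF-1 were above all 4 arrays with it. In the double mutant it was 1.63-fold higher than in wild type (log2 0.70, SE 0.15, adjusted p = 0.0139) and 1.79-fold higher than in the Aiolos mutant (log2 0.84, SE 0.15, adjusted p = 0.0100). The OBF-1 mutant differed from wild type by 0.61 on the log2 scale (SE 0.15), which did not pass (adjusted p = 0.0725). The double-mutant arrays lay far apart. The call against wild type was lost without wild type replicate 1 (adjusted p = 0.0957), wild type replicate 2 (0.0610) or double-mutant replicate 2 (0.0829), and that against the Aiolos mutant without Aiolos mutant replicate 1 (0.0806) or double-mutant replicate 2 (0.0717).

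Dntt encodes terminal transferase, which adds untemplated bases at the joins and is mainly active before the pre-B stage. Its intensity was 108 and 104 in double-mutant, 97.8 and 94.9 in Aiolos mutant, 87.8 and 99.8 in OBF-1 mutant and 68.7 and 72.5 in wild type cells. Every mutant array was above both wild type arrays. The log2 difference from wild type was 0.59 in the double mutant (SE 0.10, adjusted p = 0.00237), 0.45 in the Aiolos mutant (SE 0.10, adjusted p = 0.0404) and 0.41 in the OBF-1 mutant (SE 0.10, adjusted p = 0.0533, not passed). This probe set may also pick up other transcripts, by its type. A second Dntt probe set gave 0.40 in the double mutant (adjusted p = 0.0177), 0.20 in the Aiolos mutant (adjusted p = 0.260) and 0.47 in the OBF-1 mutant (adjusted p = 0.0193), and the remaining, dimmer one passed in none. The call in the Aiolos mutant was lost when any 1 of the 4 arrays compared was left out: without wild type replicate 1 (adjusted p = 0.242) or 2 (0.0912) and without Aiolos mutant replicate 1 (0.224) or 2 (0.122).

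Hmgb2, a chromatin protein that bends DNA and helps the recombinase bind, is also known to be high in dividing cells. It read 792 and 987 in double-mutant, 930 and 925 in Aiolos mutant, 1166 and 1136 in OBF-1 mutant and 1267 and 1257 in wild type cells. The double-mutant difference from wild type was -0.51 on the log2 scale (SE 0.11, adjusted p = 0.0117), and a second probe set gave -0.47 (adjusted p = 0.0401). In the Aiolos mutant the difference was -0.44 (adjusted p = 0.0650, not passed). Beside these values, the summed intensity of 13 mitosis genes was 2772 to 3397 in double-mutant, 2742 to 2790 in Aiolos mutant, 3957 to 4215 in OBF-1 mutant and 3478 to 3554 in wild type cells, and their part in the Hmgb2 values was not tested. The Hmgb2 call was lost without wild type replicate 1 (adjusted p = 0.0698), wild type replicate 2 (0.0679) or double-mutant replicate 1 (0.0995).

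In end joining, Polm was the 1 gene of 7, or 14.3%, that passed in any comparison. Of all measured genes 2.28% passed in the OBF-1 mutant against wild type and 3.41% between the double and the Aiolos mutant. Polm encodes polymerase mu, which fills gaps at the ends and acts in light chain joining. Its intensity was 825 and 739 in double-mutant cells, against 1155 and 1085 in Aiolos mutant cells, and 630 and 703 in OBF-1 mutant cells, against 979 and 859 in wild type cells. In both pairs the cells without OBF-1 were lower without overlap. The double mutant was 1.43-fold lower than the Aiolos mutant (log2 -0.52, SE 0.11, adjusted p = 0.0210) and the OBF-1 mutant 1.38-fold lower than wild type (log2 -0.46, SE 0.11, adjusted p = 0.0480). The double mutant against wild type, -0.23 on the log2 scale, did not pass (adjusted p = 0.234). The call in the OBF-1 mutant was lost whichever of the 8 arrays was left out (adjusted p 0.0525 to 0.323) and that against the Aiolos mutant without Aiolos mutant replicate 1 (adjusted p = 0.142) or 2 (0.0885) or double-mutant replicate 2 (0.164).

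Xrcc6 and Xrcc5 encode the Ku70 and Ku80 proteins that ring the broken end. Xrcc6 read 1519 and 1573 in double-mutant, 1318 and 1224 in Aiolos mutant, 1761 and 1605 in OBF-1 mutant and 1422 and 1291 in wild type cells, with a log2 difference of 0.31 in the OBF-1 mutant (SE 0.10, adjusted p = 0.162) and of 0.28 between the double and the Aiolos mutant (SE 0.10, adjusted p = 0.175). The arrays without OBF-1 were above their counterparts in both pairs, but neither difference passed. Xrcc5 was dim, at 23.3 and 28.3 in double-mutant, 31.1 and 27.7 in Aiolos mutant, 27.2 and 22.7 in OBF-1 mutant and 32.3 and 26.0 in wild type cells, and its arrays overlapped in each comparison. Prkdc, which encodes DNA-PKcs, read 138 and 168 in double-mutant, 130 and 142 in Aiolos mutant, 118 and 118 in OBF-1 mutant and 136 and 129 in wild type cells, and the double mutant differed from wild type by 0.20 on the log2 scale (95% interval -0.04 to 0.44, adjusted p = 0.323). Xrcc4, the partner of DNA ligase IV, was at 92.4 and 87.5 in double-mutant, 87.9 and 89.5 in Aiolos mutant, 103 and 79.8 in OBF-1 mutant and 89.0 and 91.9 in wild type cells, with a double-mutant difference of -0.01 (95% interval -0.26 to 0.25, adjusted p = 0.982). Nhej1, the XRCC4-like factor, and Poll, polymerase lambda, were dim, at 24.6 to 35.0 and 27.7 to 35.2 over the 8 arrays, and did not pass. The 6 end joining genes that did not pass had log2 differences from wild type of -0.22 to 0.36 in the 3 mutants. A further list of 9 measured end joining and end processing genes, with summed intensities of 1211 to 1315 on all arrays, had 0 genes past the test in each of the 6 comparisons in limma, with 1 at an unadjusted p under 0.05 in the Aiolos mutant against wild type.

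**Figure D2:**
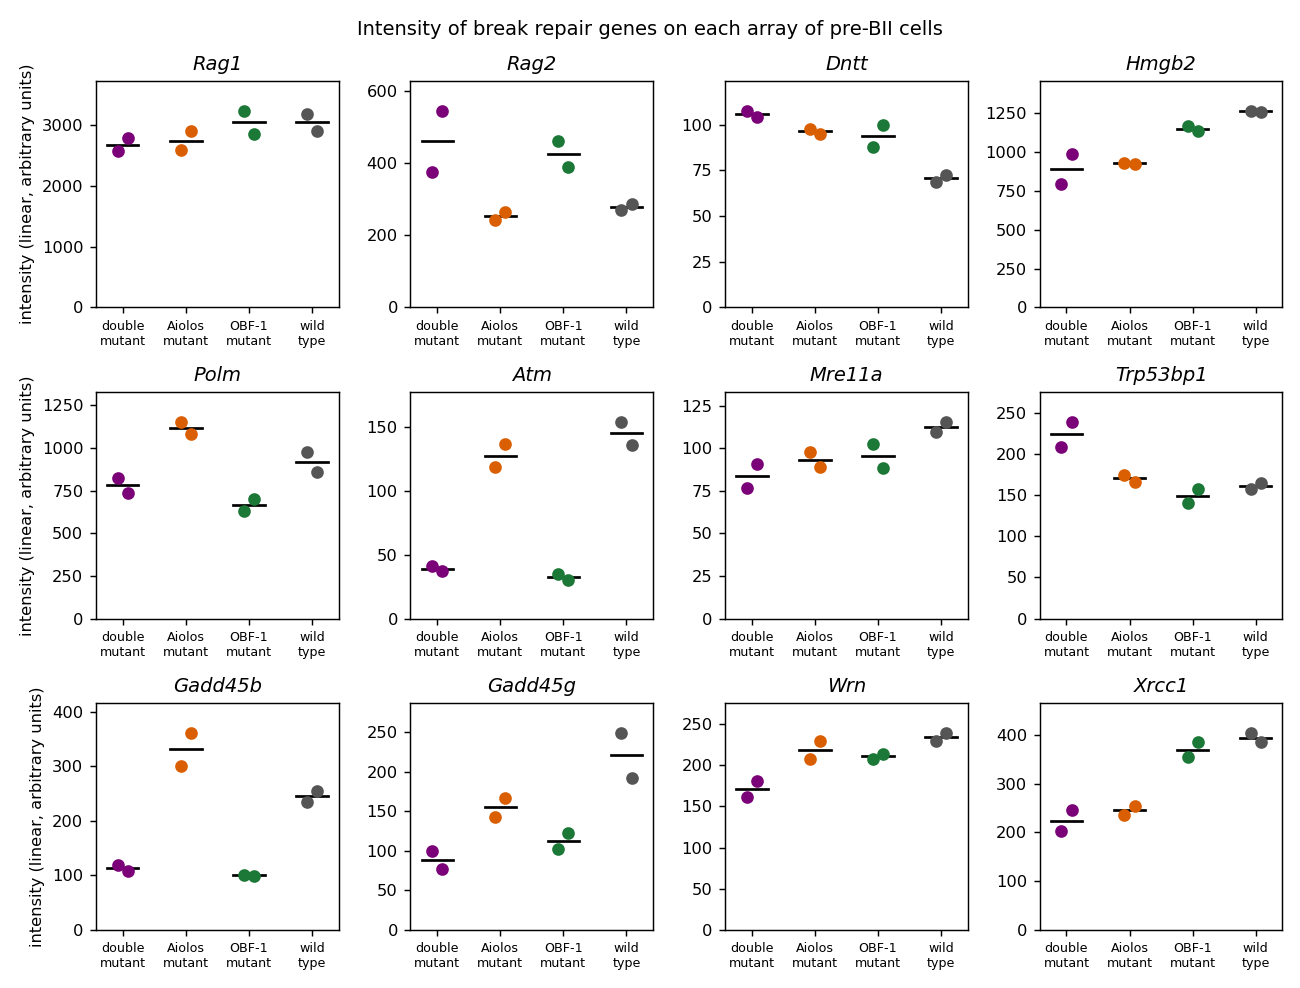
Linear intensity (y axis, arbitrary units, from 0) of Rag1 and the 11 genes that passed in any comparison, by genotype (x axis); points are arrays and bars the mean of 2. For Atm, Gadd45b, Gadd45g, Polm and Rag2 the 4 arrays without OBF-1 do not overlap the 4 with it. For Xrcc1 and Hmgb2 the 4 arrays without Aiolos lie below the 4 with it.

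The damage sensors held the largest differences. Atm encodes the kinase that detects double strand breaks, the recombinase-made ones included, and phosphorylates the checkpoint proteins. It read 41.0 and 37.5 in double-mutant, 119 and 137 in Aiolos mutant, 34.6 and 30.0 in OBF-1 mutant and 154 and 136 in wild type cells. The genotypes fell into a low pair without OBF-1 and a high pair with it, with no overlap. Atm was 4.50-fold lower in the OBF-1 mutant than in wild type (log2 -2.17, SE 0.11, adjusted p = 8.16e-07), 3.70-fold lower in the double mutant than in wild type (log2 -1.89, SE 0.11, adjusted p = 1.05e-06) and 3.25-fold lower in double-mutant than in Aiolos mutant cells (log2 -1.70, SE 0.11, adjusted p = 6.04e-06). These calls held without any 1 array. The Aiolos mutant differed from wild type by -0.19 (adjusted p = 0.397), and the interaction of 0.47 (SE 0.16, adjusted p = 0.327) did not pass. Atm has 1 probe set on the array.

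Atm lies close to the deleted gene Pou2af1 on chromosome 9, a fact looked up after its values were seen. In gene order, 4 measured genes and 11 protein-coding genes lie between them, and none of the 4 (Arhgap20, Fdx1, Rdx and Ddx10) passed, with log2 differences of -0.10 to 0.13 in the OBF-1 mutant against wild type. Among the 20 measured genes nearest to Pou2af1, 10 on each side, Atm was the 1 that passed in the OBF-1 mutant and the 1 that passed between the double and the Aiolos mutant, or 5% each. Among the 80 nearest it was 4, or 5%, and 2, or 2.5%, against 13, or 2.16%, and 17, or 2.82%, of the other 603 measured genes of the chromosome. Whether the deletion reaches Atm or its region differs between the lines was not tested. H2afx, Chek1, Mre11a and Atr are on the same chromosome with 69 to 214 measured genes between each and Pou2af1, and none of them passed in the OBF-1 mutant.

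**Figure D3:**
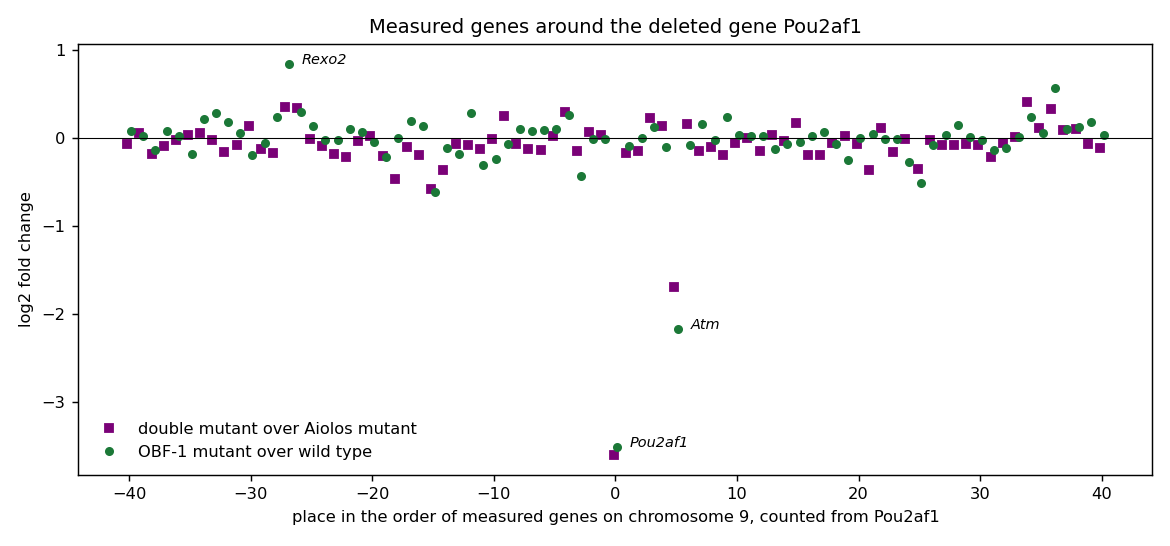
Log2 fold changes (y axis) of the measured genes up to 40 places on either side of Pou2af1, in gene order (x axis), for the double mutant over the Aiolos mutant (squares) and the OBF-1 mutant over wild type (circles). Atm, 5 places from Pou2af1, is at -1.70 and -2.17, and the 4 genes between them are near 0.

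Gadd45b and Gadd45g encode stress-induced proteins that bind a kinase upstream of p38 and JNK and are linked to growth arrest and DNA demethylation. Gadd45b read 120 and 108 in double-mutant cells, against 300.3 and 361 in Aiolos mutant cells, and 101 and 99.1 in OBF-1 mutant cells, against 235 and 254 in wild type cells. Both pairs were far apart. It was 2.90-fold lower in double-mutant than in Aiolos mutant cells (log2 -1.54, SE 0.11, adjusted p = 8.12e-06), 2.45-fold lower in the OBF-1 mutant than in wild type (log2 -1.29, SE 0.11, adjusted p = 4.27e-05) and 2.15-fold lower in the double mutant than in wild type (log2 -1.11, SE 0.11, adjusted p = 5.51e-05). The Aiolos mutant was above wild type by 0.43 (SE 0.11), which did not pass (adjusted p = 0.0717). A second probe set, whose type may pick up other transcripts, gave -2.56 between the double and the Aiolos mutant (adjusted p = 4.54e-07) and -2.59 in the OBF-1 mutant (adjusted p = 4.16e-07). The remaining, dimmer probe set gave -0.51 (adjusted p = 0.0202) and -0.18 (adjusted p = 0.486) in the same comparisons. Gadd45b kept its calls when any 1 array was left out.

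Gadd45g, whose promoter window holds the octamer shown above, gave 99.8 and 76.4 in double-mutant, 143 and 168 in Aiolos mutant, 102 and 122 in OBF-1 mutant and 250 and 193 in wild type cells. Each mutant lay below wild type, and the 4 arrays without OBF-1 lay below the 4 with it. The double mutant was 2.51-fold lower than wild type (log2 -1.33, SE 0.16, adjusted p = 0.000232), the OBF-1 mutant 1.96-fold lower than wild type (log2 -0.97, SE 0.16, adjusted p = 0.00726) and the double 1.77-fold lower than the Aiolos mutant (log2 -0.83, SE 0.16, adjusted p = 0.0131). The Aiolos mutant differed by -0.50 (SE 0.16), which did not pass (adjusted p = 0.125). The OBF-1 mutant call was lost without wild type replicate 1 (adjusted p = 0.0905) or OBF-1 mutant replicate 1 (0.0684), and the call against the Aiolos mutant without Aiolos mutant replicate 2 (0.136) or double-mutant replicate 2 (0.138).

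Gadd45a, the p53-induced member of the family, had 2 octamers in its window and read 85.5 and 96.7 in double-mutant, 75.7 and 81.6 in Aiolos mutant, 102 and 89.5 in OBF-1 mutant and 101 and 87.1 in wild type cells. Its difference in the OBF-1 mutant was 0.03 (95% interval -0.22 to 0.27, adjusted p = 0.948), and it passed in no comparison. Of 19 further measured p53 targets, 1 (5.26%) passed in the OBF-1 mutant against wild type, where 2.28% of all measured genes did. It was the cell cycle inhibitor Cdkn1a, which was higher by 0.45 on the log2 scale (adjusted p = 0.0333). In each of the other comparisons 0 passed in limma, with 0 to 4 at an unadjusted p under 0.05.

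All 4 genes that passed in the OBF-1 mutant against wild type, Atm, Gadd45b, Gadd45g and Polm, were also lower in double-mutant than in Aiolos mutant cells. The means in these comparisons come from different arrays, but the calls are not independent. Both rest on the same spread of a gene, pooled over all genotypes, so a gene with a small spread passes more easily in both. These 4 are 10.8% of the 37 genes, whereas 164 of all 12393 genes, or 1.32%, passed in the same direction in both. Marker lists of other cells and stages also differed between the double and the Aiolos mutant, where these genes were lower. In this comparison 3.41% of all measured genes passed. Of 4 plasma cell markers 2 passed, both higher, Sdc1 by 0.89 (adjusted p = 0.000356) and Irf4 by 0.59 (adjusted p = 0.00793), and of 6 erythroid markers 1, Car2, higher by 0.65 (adjusted p = 0.0377). Of 7 pre-B markers 3 passed, Il2ra higher and Vpreb3 and Cd79b lower, and of 6 immature and mature B cell markers 3, Cd22 and Fcgr2b higher and Ms4a1 lower by -1.68 (adjusted p = 1.29e-06). Of 8 pro-B and pre-BI markers 5 passed, Il7r, Spn, Igll1 and Vpreb1 higher and Cd93 lower by -0.97 (adjusted p = 9.5e-05). Of 10 granulocyte and monocyte markers 0 passed in limma, with 2 at an unadjusted p under 0.05. The part of these differences in the values of Atm, Gadd45b, Gadd45g and Polm was not tested.

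**Figure D4:**
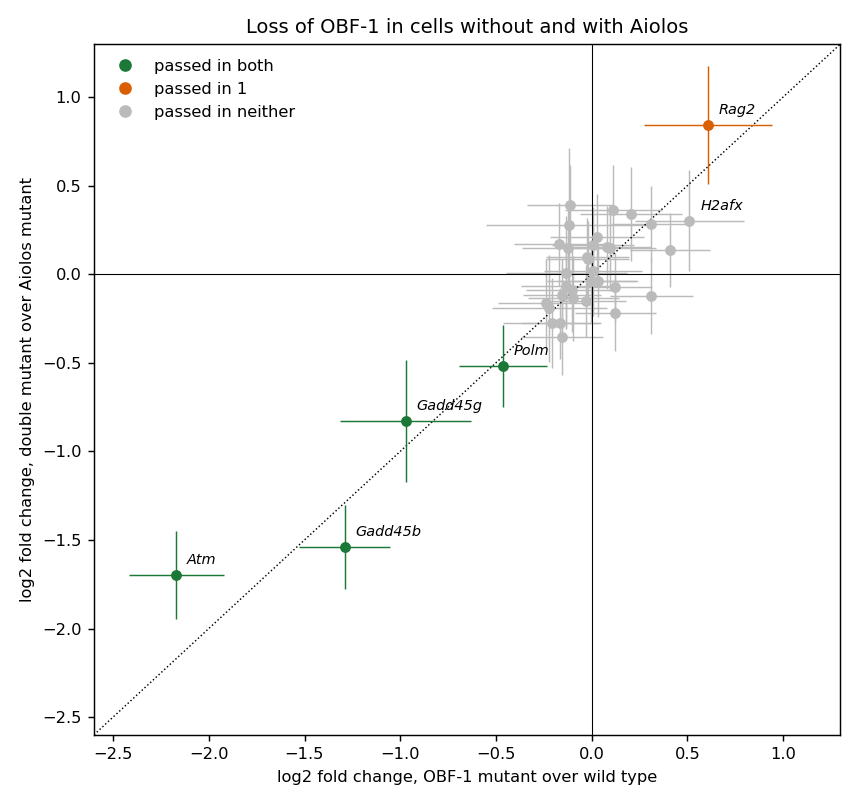
Log2 fold change of the 37 genes in the OBF-1 mutant over wild type (x axis) and in the double over the Aiolos mutant (y axis), with 95% intervals; the dotted line marks equal values. Atm, Gadd45b, Gadd45g and Polm lie low on both axes, and Rag2 lies highest on both.

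The other sensors differed less. Trp53bp1 encodes 53BP1, which protects broken ends from resection and favours end joining. It read 208 and 239 in double-mutant, 174 and 166 in Aiolos mutant, 140 and 158 in OBF-1 mutant and 157 and 165 in wild type cells, so that both double-mutant arrays were above all others. The double mutant was higher than wild type by 0.47 on the log2 scale (SE 0.10, adjusted p = 0.0140) and higher than the OBF-1 mutant by 0.58 (SE 0.10, adjusted p = 0.0108). A second probe set of similar brightness gave 0.06 (adjusted p = 0.820) and 0.15 (adjusted p = 0.574) in these comparisons, so the 2 probe sets of the gene disagree. The call against wild type was lost without wild type replicate 1 (adjusted p = 0.0939) or 2 (0.0569) or double-mutant replicate 2 (0.0940), and that against the OBF-1 mutant without OBF-1 mutant replicate 1 (0.0830) or double-mutant replicate 2 (0.0769).

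Mre11a encodes the nuclease of the complex that binds ends first, with Rad50 and Nbn. It was at 76.4 and 90.9 in double-mutant, 97.5 and 89.0 in Aiolos mutant, 102 and 88.4 in OBF-1 mutant and 109 and 116 in wild type cells. The double mutant was lower than wild type by -0.43 on the log2 scale (SE 0.11, adjusted p = 0.0367). Rad50 (210 to 254 over the 8 arrays) and Nbn (17.3 to 26.5) did not pass, and their double-mutant differences of 0.14 and 0.41 were above 0. The Mre11a call was lost without wild type replicate 1 (adjusted p = 0.103) or 2 (0.184) or double-mutant replicate 1 (0.248).

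H2afx, the histone variant that is phosphorylated around breaks, read 560 and 678 in double-mutant, 514 and 486 in Aiolos mutant, 763 and 979 in OBF-1 mutant and 584 and 630 in wild type cells. Its difference of 0.51 in the OBF-1 mutant did not pass (SE 0.13, adjusted p = 0.0759). The OBF-1 mutant cells, highest for H2afx, also had the highest mitosis sum, whose part was not tested. Atr, the kinase that answers to single-stranded DNA at stalled forks, read 121 to 146, and the checkpoint kinases Chek1 and Chek2 read 36.7 to 50.9 and 68.2 to 102. Mdm2, the ligase that marks p53 for breakdown, read 579 to 745. None of these passed, and the 8 sensors and checkpoint genes that did not pass in any comparison had log2 differences from wild type of -0.33 to 0.51.

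In homologous recombination, 1 of 7 genes passed in any comparison. It passed in the double mutant against wild type, which made 14.3%, where 9.03% of all measured genes passed. Wrn encodes the helicase and exonuclease that is mutated in Werner syndrome. It read 161 and 181 in double-mutant, 207 and 230 in Aiolos mutant, 207 and 214 in OBF-1 mutant and 230 and 240 in wild type cells. Both double-mutant arrays were below all the others, with a difference from wild type of -0.46 on the log2 scale (SE 0.10, adjusted p = 0.0127). The other probe sets of Wrn, both dimmer, gave -0.18 (adjusted p = 0.296) and -0.08 (adjusted p = 0.737), so the call rests on 1 of 3 probe sets. It was lost without wild type replicate 1 (adjusted p = 0.0538) or 2 (0.0892) or double-mutant replicate 1 (0.107).

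Brca1 and Bard1, which form a ubiquitin ligase needed for end resection, read 77.6 to 113 and 14.9 to 18.2. Brca2, which acts in strand exchange, read 68.8 to 80.6, Rad52 and Rad54l, which act in strand pairing, 46.5 to 81.2 and 88.5 to 107, and the helicase Blm 103 to 133. These 6 genes passed in no comparison, with log2 differences from wild type of -0.33 to 0.31 in the 3 mutants. Of 16 further homologous recombination genes, 2 (12.5%) passed in the double mutant against wild type, where 9.03% of all measured genes did. Both were lower: Rpa3, a subunit of the single strand binding protein, by -0.57 (adjusted p = 0.0285) and the nuclease subunit Eme1 by -0.36 (adjusted p = 0.0358). Another, Rad51b, was higher in the Aiolos mutant by 0.56 (adjusted p = 0.0198), or 6.25% of the 16, where 1.78% of all measured genes passed. Of 15 further checkpoint genes, 2 (13.3%) passed in the double mutant against wild type, where 9.03% of all measured genes did. Tlk2 was higher (0.71, adjusted p = 0.0147) and the fork protein gene Tipin lower (-0.37, adjusted p = 0.0326). Cdc25b, a phosphatase that drives entry into mitosis, was lower in the OBF-1 mutant (-0.56, adjusted p = 0.0197). This was 6.67% of the 15, where 2.28% of all measured genes passed. Of 8 Fanconi anaemia genes, 1 (12.5%) passed in any comparison. Fanca was lower in the double than in the OBF-1 mutant (-0.49, adjusted p = 0.0312), where 2.9% of all measured genes passed.

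Xrcc1 holds ligase III and other enzymes at single strand breaks. It read 203 and 246 in double-mutant and 236 and 255 in Aiolos mutant cells, against 355 and 385 in OBF-1 mutant and 405 and 385 in wild type cells. The genotypes without Aiolos were low and those with it high, with no overlap. Xrcc1 was 1.77-fold lower in the double mutant than in wild type (log2 -0.82, SE 0.11, adjusted p = 0.000574), 1.66-fold lower in the double than in the OBF-1 mutant (log2 -0.73, SE 0.11, adjusted p = 0.00376) and 1.61-fold lower in the Aiolos mutant than in wild type (log2 -0.69, SE 0.11, adjusted p = 0.0125). Each of these compares arrays of station 1 with arrays of station 2. Xrcc1 was the 1 gene of the 37, or 2.7%, that passed in the same direction in both comparisons that differ in Aiolos alone, where 100 of all genes, or 0.807%, did. The call in the Aiolos mutant was lost without wild type replicate 1 (adjusted p = 0.114) or Aiolos mutant replicate 1 (0.114).

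The other 5 genes of single strand break, base excision and mismatch repair passed in no comparison. Parp1, the sensor of single strand breaks, read 896 to 1354 and Lig3, the ligase, 136 to 162. Ung, which removes uracil from DNA, read 24.8 to 32.0, Apex1, which cuts at abasic sites, 591 to 718, and Msh6, a mismatch sensor, 203 to 296. Of 13 further genes of these pathways, 1 (7.69%) passed in any comparison, where 2.28% to 9.03% of all measured genes passed in the same comparisons. This was Mbd4, a glycosylase that removes thymine or uracil mispaired with guanine, and it read 268 and 245 in double-mutant cells, against 478 and 464 in Aiolos mutant cells, and 290 and 267 in OBF-1 mutant cells, against 623 and 439 in wild type cells. All arrays without OBF-1 were below all arrays with it. The difference was -0.88 between the double and the Aiolos mutant (SE 0.14, adjusted p = 0.00434), -0.91 in the OBF-1 mutant against wild type (SE 0.14, adjusted p = 0.00498) and -1.03 in the double mutant against wild type (SE 0.14, adjusted p = 0.000678).

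Set against each other by role, 3 of the 11 recombinase and end joining genes passed in the double mutant against wild type (27.3%), and 6 of the 20 sensor, checkpoint and homologous recombination genes (30%). Of all measured genes 9.03% passed there. In the OBF-1 mutant it was 1 of 11 (9.09%) and 3 of 20 (15%), where 2.28% of all measured genes passed. In the Aiolos mutant it was 1 of 11 (9.09%) and 0 of 20 in limma, where 4 and 6 had an unadjusted p under 0.05. Of all measured genes 1.78% passed in that comparison. The median log2 difference of the recombinase and end joining genes was 0.14 in the double mutant, -0.0056 in the Aiolos mutant and 0.0058 in the OBF-1 mutant. That of the sensor, checkpoint and homologous recombination genes was -0.05, -0.12 and -0.06, while over all measured genes it was 0.01, 0.04 and 0.03. The recombinase and end joining median was thus above the other by 0.19 in the double mutant, 0.11 in the Aiolos mutant and 0.07 in the OBF-1 mutant, where the same difference varied with an SD of 0.10 between arrays of 1 genotype. Without double-mutant replicate 1 the 0.19 became -0.0041, and without OBF-1 mutant replicate 1 the 0.07 became -0.05. The size of the differences lay in few genes: no recombinase or end joining gene differed by as much as 1 on the log2 scale in any mutant, whereas Atm, Gadd45b and Gadd45g did in the double mutant.

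**Figure D5:**
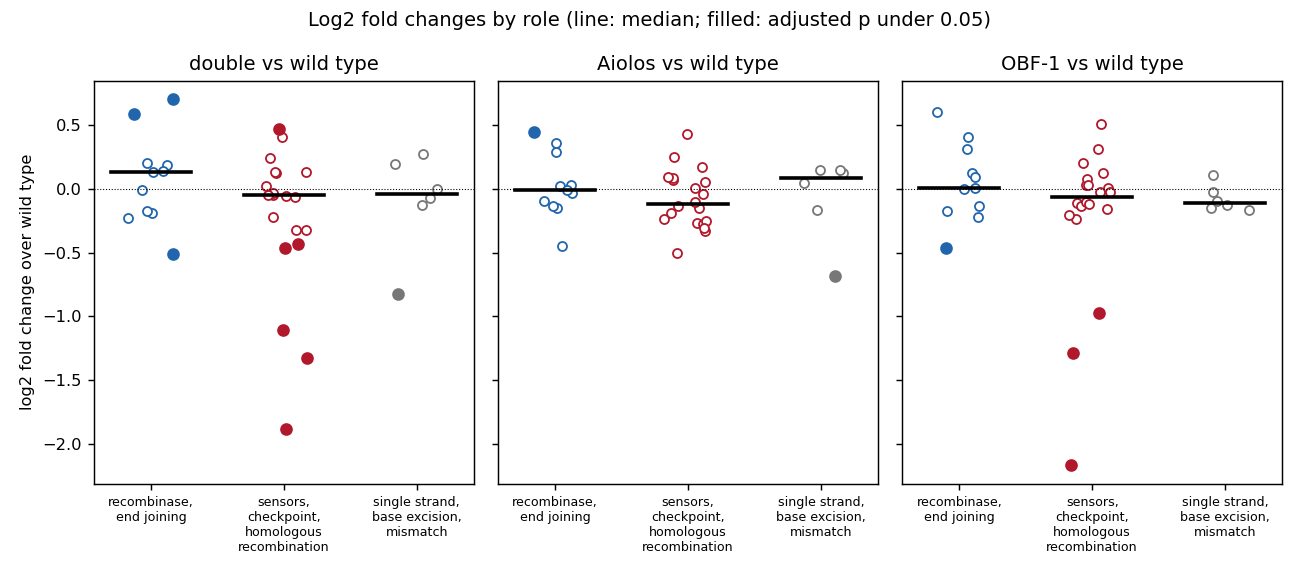
Log2 fold change over wild type (y axis) of each gene by role (x axis) in the double, Aiolos single and OBF-1 mutants (panels); filled points had an adjusted p under 0.05 and lines are medians. The role medians lie between -0.12 and 0.14. The lowest points in the double and OBF-1 mutant panels are Atm, Gadd45b and Gadd45g, and that in the Aiolos panel is Xrcc1, at -0.69.

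Regulators of Rag transcription were also read. Of 15 measured, 5 (33.3%) passed in the double mutant against wild type, where 9.03% of all measured genes did. Irf4, which drives light chain opening in pre-B cells, was higher by 0.69 (adjusted p = 0.00127), and the Rag repressor Gfi1 by 0.42 (adjusted p = 0.0316). Ebf1, an early B cell factor, was lower by -0.51 (adjusted p = 0.0177), the quiescence factor Klf2 by -0.49 (adjusted p = 0.0386) and Irf8 by -0.47 (adjusted p = 0.0360). Between the double and the Aiolos mutant, where Rag2 was higher, Irf4 and Gfi1 were also higher, by 0.59 (adjusted p = 0.00793) and 0.46 (adjusted p = 0.0432). Irf4 in the OBF-1 mutant was higher by 0.51 (adjusted p = 0.0232), and in the Aiolos mutant Ebf1 and Klf2 were lower by -0.58 each (adjusted p = 0.0297 and 0.0483). Of 16 S phase genes, 2 (12.5%) passed in the double mutant against wild type, where 9.03% of all measured genes did. These were Cdt1 (-0.55, adjusted p = 0.0176) and Prim1 (-0.42, adjusted p = 0.0165), both lower. The pro-B and pre-BI markers, summed over 8 genes, were at 14150 to 14510 in double-mutant, 9278 to 9917 in Aiolos mutant, 4948 to 5070 in OBF-1 mutant and 4634 to 4710 in wild type cells. Much of the sum in the double mutant came from the surrogate light chain genes Igll1 and Vpreb1. They averaged 5656 and 3360 there, against 304 and 193 in wild type, and were higher by 4.22 and 4.12 on the log2 scale. In this comparison 75% of the 8 markers passed, where 9.03% of all measured genes did. Among these, 5 were higher and 1, Cd93, was lower, by -0.61 (adjusted p = 0.00173). Kit and Flt3 did not pass. The part of these markers in the Rag2 and Dntt values was not tested.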

How the data were processed

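Pre-BII cells of 4 genotypes were profiled on 8 arrays. RMA, which the labels name, was run by the authors to correct background, normalize between arrays and summarize probe sets. The deposited intensity values are linear, so log2 was taken. RMA pulls distributions together and compresses dim genes, which can understate fold changes: 12 of the 37 genes had a mean below 100 in every genotype. The array has 22690 probe sets, and its 64 controls were removed. Symbols came from the platform annotation, of which 20380 probe sets had 1 symbol, 691 several and 1555 none. The 1 probe set with the highest mean was read per gene.

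Fits used R 4.3.3 and limma 3.58.1, with 7.69 prior and 4 residual degrees of freedom and adjustment over 22626 probe sets. On simulated data for the double mutant against wild type (22626 probe sets, 200 changed, 10 runs) the fit recovered 74.2% of log2 shifts of 0.5 and 99.9% of shifts of 1, and 8.37% of its calls were false. The simulated noise was normal and independent between probe sets, and no station difference was put in. In the data 1938 probe sets passed in this comparison, so these rates are not those of the real calls. Every measured gene of the set is named, with full values for those that passed and for the main recombinase and end joining genes. Of the further lists only some genes past the test are named. Genes that passed in the mitosis, granulocyte and monocyte, megakaryocyte and stroma lists are among those not named. The genes and lists were chosen with earlier results of these data known. Same-numbered arrays of different genotypes deviated together with an r of -0.0875 to 0.103, so the numbers do not pair them. Promoter windows are those of RefSeq.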

Additional observations from a re-analysis of the deposited data

How the results depend on the processing

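No call of a gene changed direction under an alternative. For the 37 genes, the calls in the Aiolos mutant against wild type were 2, and 1 with centring on the array median, with only the compared genotypes, with at least 1.5-fold or with probe sets ending in _at only, 0 without moderation of variances, and 0 to 3 when each array was left out in turn. In the OBF-1 mutant they were 4, and 0 without moderation and 2 to 4 with an array left out. In the double mutant against wild type they were 10, and 2 without moderation and 6 at 1.5-fold, and some were lost with an array left out, as given above. At the methods' 3-fold threshold, with an unadjusted F test p under 0.05 over the genotypes in place of the adjusted p, 1 passed. The intensity filter of the methods was not applied there. Between the double and the Aiolos mutant they were 5, and 0 without moderation and 2 to 7 with an array left out. Between the double and the OBF-1 mutant they were 2, and 0 without moderation, 5 with a trend and robust fit, 1 at 1.5-fold and 1 with probe sets ending in _at. The Trp53bp1 difference of 0.58 in this comparison was 0.50 without OBF-1 mutant replicate 1 and 0.48 without double-mutant replicate 2. A replicate block moved the count between the double and the OBF-1 mutant to 4 and left the others at 2, 4, 10, 5 and 0. With the block Polm was lost in the OBF-1 mutant (adjusted p = 0.0503), and the replicate numbers do not pair the arrays. The gap between the medians of the role groups, 0.11 in the Aiolos mutant, was 0.0124 for genes with a genotype mean of at least 100 and 0.00325 to 0.113 with an array left out. It ranged over -0.049 to 0.201 in the OBF-1 mutant, -0.00409 to 0.21 in the double mutant and -0.0331 to 0.153 between the double and the OBF-1 mutant with an array left out, and between the double and the Aiolos mutant it was 0.0334, against 0.223 for genes with a genotype mean of at least 100 and -0.049 to 0.0908 with an array left out. Apart from the settings that use fewer arrays or genes, the cause was not tested. With 2 arrays a genotype, small differences of dim genes were not detectable.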
